A study of Homo sapiens with 59 samples.

Results

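Transcript levels of 10 genes of the epithelial-mesenchymal transition were followed in A549, a long-established line of human lung carcinoma, treated with extracts of herbal medicines. The genes were chosen by name, as the rows of the deposited count table whose Ensembl ID maps to CDH1, EPCAM, CDH2, VIM, FN1, TGFBI, ZEB1, SNAI2, TGFB1 or TGFBR2. They are 10 of the 60675 genes in the table, and all 10 were among the 18568 genes that passed the filter on low counts. No member was lost to that filter.

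The study exposed the cells for 24 h to 1 of 8 medicines, each a 70% ethanol extract, or to a vehicle of DMSO (0.1% in the sample labels, 2% in the series text), with 3 vehicle libraries. High, medium and low dose were 110, 22 and 4.4 µg/mL for Coptidis Rhizoma, and 190, 38 and 7.6 µg/mL for Bupleuri Radix. Aconiti Lateralis Radix Preparata, Cimicifugae Rhizoma, Zizyphi Fructus, Citri Unshius Pericarpium and the formulas Banhasasim-tang and Yijung-tang were used at 500, 100 and 20 µg/mL. Each dose had 3 libraries for Citri, Cimicifugae and Bupleuri and 2 for Coptidis, Zizyphi and Yijung-tang, Aconiti had 3, 2 and 3 from high to low, and Banhasasim-tang had 1. All groups are the same unmodified cell line and none of them received added TGF-beta, as far as the labels say. A single cancer line in culture has no neighbouring stroma, and levels of RNA say nothing here of cell shape or movement.

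In the epithelial-mesenchymal transition, epithelial cells loosen their junctions and take on features of mesenchymal cells. E-cadherin (CDH1) and the adhesion molecule EpCAM (EPCAM) mark the epithelial state, whereas N-cadherin (CDH2), the filament protein vimentin (VIM) and the matrix protein fibronectin (FN1) mark the mesenchymal one. The ligand TGF-beta 1 (TGFB1) signals through its type II receptor (TGFBR2), induces matrix genes such as TGFBI, and raises the zinc-finger repressors ZEB1 and SLUG (SNAI2), which bind E-box sequences in the CDH1 promoter and silence it. A549 cells are a common model of TGF-beta-induced transition and carry both epithelial and mesenchymal transcripts before any treatment.

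The promoters of FN1 and ZEB1 are shown as those, among the promoters found, with a match to a motif searched for. FN1 fell and ZEB1 rose at the medium dose of Aconiti. CDH2 and TGFBI, which fell there too, and VIM, which rose, had no match. RefSeq promoters on GRCh38.p14 were found for 7 of the 10 genes (CDH2, VIM, FN1, ZEB1, TGFBI, TGFB1 and TGFBR2). In FN1 the capitals mark TGACGTCA, the cAMP response element, which reads the same on both strands and begins at position -183 from the RefSeq start site. In ZEB1 the capitals mark CAGGTG, the other strand of the E-box CACCTG that ZEB and SNAI proteins bind, at position -57. The FN1 stretch lies at chr2:215436173-215436318 on the minus strand and leaves out the 104 bases that GENCODE 29 places in the gene, and the ZEB1 stretch lies at chr10:31318167-31318416 on the plus strand.
FN1 upstream: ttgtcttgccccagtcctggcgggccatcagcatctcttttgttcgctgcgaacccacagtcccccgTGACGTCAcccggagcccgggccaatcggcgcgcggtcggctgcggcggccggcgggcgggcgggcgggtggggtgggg
ZEB1 upstream: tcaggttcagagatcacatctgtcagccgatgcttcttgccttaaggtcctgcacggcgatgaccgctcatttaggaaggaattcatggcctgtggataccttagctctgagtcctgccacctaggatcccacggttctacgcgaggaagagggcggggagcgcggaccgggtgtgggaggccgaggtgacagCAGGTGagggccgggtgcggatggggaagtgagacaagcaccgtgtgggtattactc
Among 35116 RefSeq promoters, 1.65% held TGACGTCA and 17.5% held CACCTG or CAGGTG within the 250 bases upstream. FN1 held the first and not the second, ZEB1 the second and not the first, and the upstream windows of the other 5 genes held neither. A match describes the sequence only.

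Library totals ran from 17214724 to 39751138 expected counts. The 59 libraries held all 10 markers fixed for A549 and epithelium, with summed levels of 14480 to 32982 CPM, whereas 5 endothelial markers together reached at most 0.259 CPM, and 6 leukocyte markers together at most 3.28 CPM. Of the leukocyte markers, CD14 reached 3.16 CPM (vehicle mean 1.95), whereas the other 5 were never above 1 CPM, with PTPRC at most 0.0488 CPM and CD3E at 0. CPM are counts scaled to library size after TMM normalisation. On the first principal component of all tested genes (18.2% of the variance), 4 libraries of the set that holds Citri and Cimicifugae stood apart, with scores of 41.02 to 107 against -18.03 to 15.51 in the other 55. They were replicate 3 of the high and medium dose of Citri and replicate 2 of the medium and low dose of Cimicifugae. In these 4, TGFBR2 was at 29.3 to 64.2 CPM against 59.8 to 91.6 in the other 55, CDH1 at 14.8 to 21.5 CPM and FN1 at 264 to 357 CPM, and the tests on these groups are given with and without them. The library codes give the vehicle a code of its own and pair the extracts in 4 sets, so a difference from vehicle cannot be told apart from a difference between sets. The labels do not say that replicates came from separate cultures, so a p-value here reflects the spread among libraries, which may be technical.

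Per kilobase of exon, VIM and TGFBI were the most abundant of the 10 genes and SNAI2 the least. In the vehicle, VIM stood at 185 ± 9.37 CPM per kb and TGFBI at 156 ± 0.807 (SD, n = 3). FN1 followed at 31.2 ± 0.611, TGFB1 at 27.8 ± 1.604, CDH2 at 19.6 ± 1.14 and TGFBR2 at 17.9 ± 0.341 CPM per kb. CDH1 at 5.03 ± 0.0838, ZEB1 at 3.36 ± 0.183 and EPCAM at 1.86 ± 0.377 were lower, and SNAI2 at 0.121 ± 0.0298 was the lowest. Vehicle-treated cells therefore had more N-cadherin than E-cadherin transcript per unit of length. Among the 25 groups, the highest group mean was 6.85 times the lowest for CDH1 and 4.52 times for FN1, 2.61 times for SNAI2 and 2.41 times for EPCAM. For the other 6 genes it was 1.37 times (ZEB1) to 1.69 times (TGFB1).

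**Figure D1:**
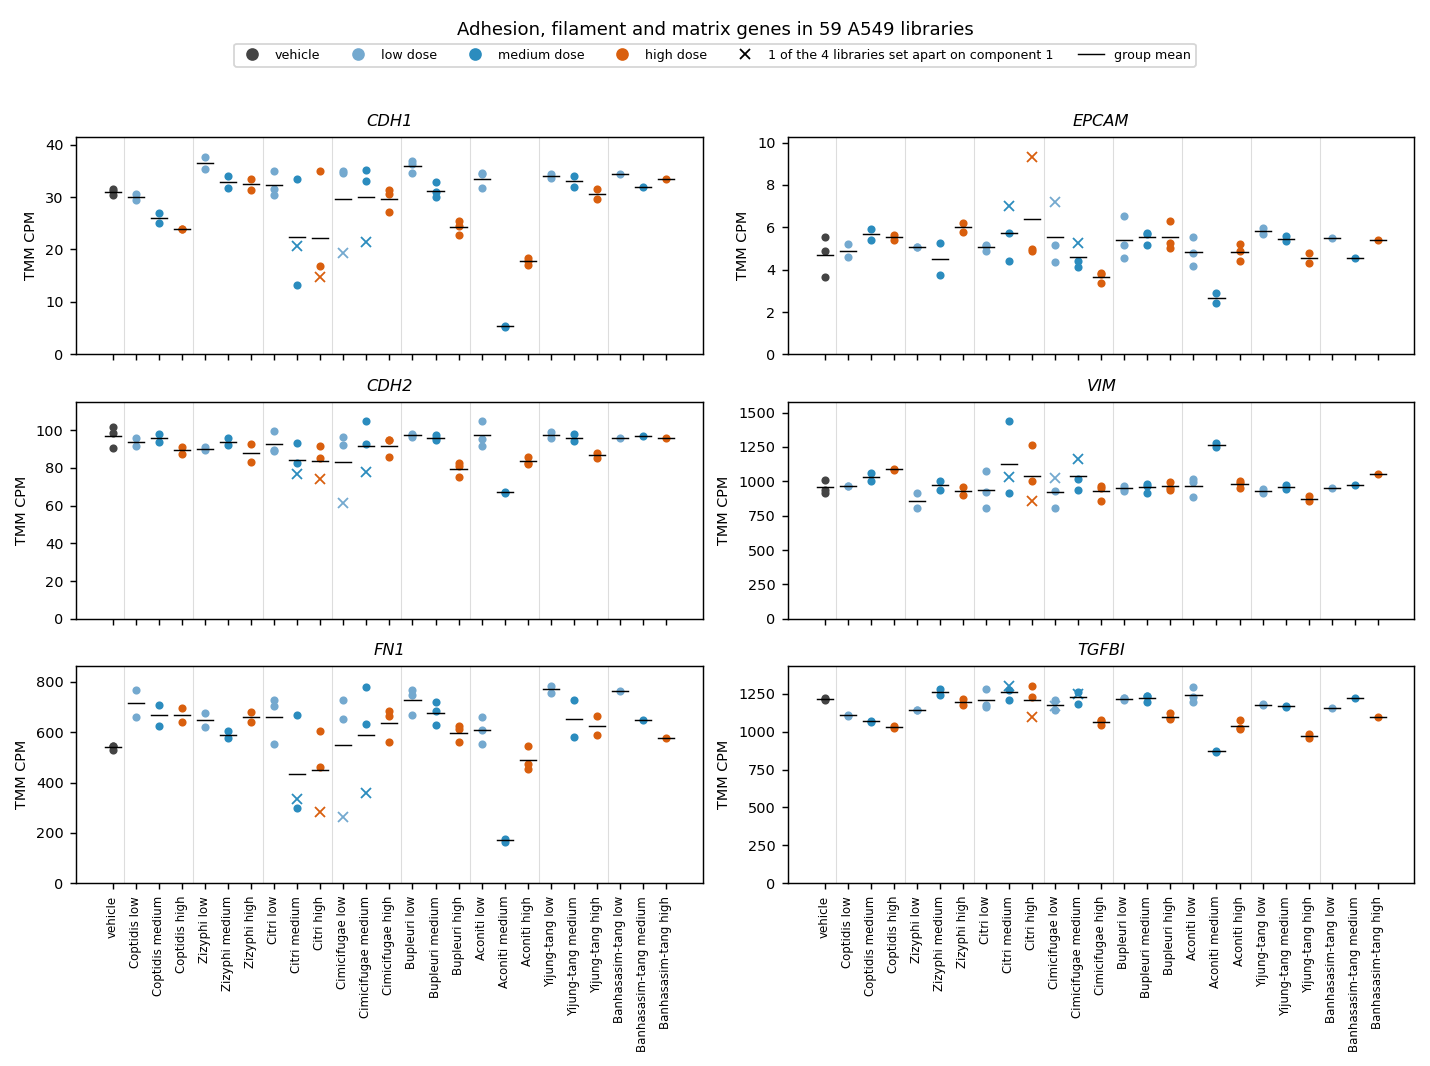
CPM after TMM scaling (y axis, linear from 0) of CDH1, EPCAM, CDH2, VIM, FN1 and TGFBI in each of 59 libraries, grouped on the x axis by extract and dose; points are libraries, crosses the 4 libraries set apart on the first principal component, and bars group means. Both libraries of the medium dose of Aconiti are the lowest of all for CDH1 (5.22 and 5.42 CPM) and FN1 (163 and 177 CPM).

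Each dose with replicates was compared with vehicle in 1 edgeR quasi-likelihood fit over all genes, and a gene was called at an adjusted p below 0.05 (Benjamini-Hochberg). Of 210 such tests on the 10 genes in 21 comparisons, 12 were called, 3 higher and 9 lower. This is 5.71% against 2.29% of tests over all genes (1.23% higher, 1.06% lower), and 29 had an unadjusted p below 0.05. Of these 12 calls, 7 came from the medium dose of Aconiti. Between high and low dose of the same extract 4 of 70 tests were called (1 higher, 3 lower) against 1.62% of all tests (0.999% and 0.626%). Between high and medium dose it was 4 of 70, all higher and all in Aconiti, against 1.31% (0.799% higher, 0.506% lower). Between the extracts of a set at high dose, 4 of 30 were called (3 higher, 1 lower) against 5.71% over all genes (3.74% and 1.97%). Between Bupleuri and Aconiti 0 were called by edgeR (1.33% of genes were) or DESeq2, with 1 (CDH1) at an unadjusted p below 0.05. A call below is one of this fit of all 59 libraries unless another is named. Fits by extract held all doses of the extract or extracts compared, and the vehicle where it was compared. They called 42 of the 210 tests against vehicle, and a fit without the 4 libraries 23. More of all genes were called too at most doses with such calls. At the medium dose of Aconiti it was 42% and 32.8%, against 17.5% on all libraries. The comparisons of doses with vehicle share the 3 vehicle libraries.

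**Figure D2:**
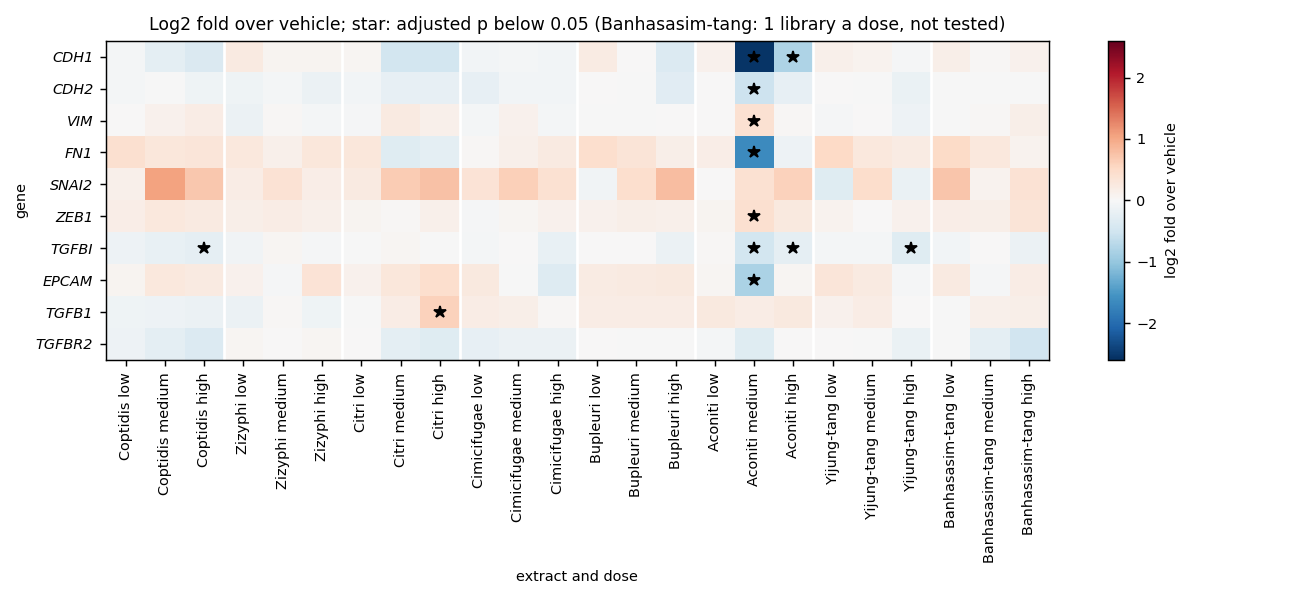
Log2 fold over vehicle (colour) of the 10 genes (rows) at each extract and dose (columns), with a star where the adjusted p was below 0.05; Banhasasim-tang is shown as the ratio of its single library to the vehicle mean and was not tested. The deepest colours are CDH1 (-2.54) and FN1 (-1.66) at the medium dose of Aconiti, and the SNAI2 row has colour without stars, at levels of 0.272 to 1.04 CPM.

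At the medium dose of Aconiti (100 µg/mL), the epithelial genes CDH1 and EPCAM fell, the mesenchymal cadherin CDH2 and the matrix genes FN1 and TGFBI fell as well, and VIM and ZEB1 rose. In all, 7 of the 10 genes were called against vehicle, 5 lower and 2 higher, where 17.5% of all tested genes were called. The median log2 fold of the 10 was -0.40, against -0.01 over all tested genes. Both libraries had ordinary depth (29996367 and 29556254 expected counts) and first-component scores of -4.064 and -12.18, within the range of the 55. At the low dose edgeR called 0 of the 10 genes, with 0 at an unadjusted p below 0.05, DESeq2 called 0, and 0% of all genes were called.

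CDH1 (E-cadherin; ENSG00000039068, chromosome 16, 68737225 to 68835548, plus strand, GRCh38), the adhesion molecule of epithelial junctions, had 31.5, 30.5 and 31.2 CPM in the vehicle. At the medium dose of Aconiti it had 5.22 and 5.42 CPM, at the high dose 18.4, 17.1 and 17.9, and at the low dose 34.3, 31.7 and 34.5. Neither the medium nor the high dose overlapped the vehicle, and the medium dose lay below the high dose, so the levels did not follow the order of the doses as labelled. The dose of each Aconiti library rests on the labels alone, and whether medium and high were exchanged cannot be checked from the files, which holds for every Aconiti value here. The medium dose fell by 2.54 ± 0.28 on the log2 scale (SE; adjusted p = 4.4e-09, edgeR), to 0.171 of the vehicle. At the high dose, where 4.65% of all genes were called against vehicle, CDH1 fell by 0.80 ± 0.22 (adjusted p = 0.0229) and by 0.91 ± 0.22 against the low dose (adjusted p = 0.0089; 3.29% of genes called). The high dose exceeded the medium dose by 1.74 ± 0.27 (adjusted p = 1.98e-05), where 7.78% of genes were called, 4.64% in that direction. The call of the high dose against vehicle was lost when any 1 of the 6 libraries was left out (log2 fold -0.82 to -0.76 over all alternatives, adjusted p up to 0.119), and that against the low dose without replicate 2 of the high dose (0.0576).

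EPCAM (ENSG00000119888, chromosome 2, 47345158 to 47387601, plus strand), a surface molecule of simple epithelia, had 4.89, 3.66 and 5.53 CPM in the vehicle and 2.88 and 2.41 at the medium dose of Aconiti. The high dose had 5.21, 4.40 and 4.90 CPM and the low dose 5.56, 4.19 and 4.77, both overlapping the vehicle. The medium dose fell by 0.82 ± 0.22 (log2, SE; adjusted p = 0.00742, edgeR) against vehicle, and the high dose exceeded it by 0.87 ± 0.22 (adjusted p = 0.00871). Without vehicle replicate 3 or without replicate 2 of the medium dose the first call was lost, with adjusted p up to 0.146, and without the latter the second was lost too (0.192).

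CDH2 (N-cadherin; ENSG00000170558, chromosome 18, 27950966 to 28177446, minus strand), the cadherin usually gained in the transition, moved in the same direction as CDH1. The vehicle had 98.7, 102 and 90.7 CPM, and the medium dose of Aconiti had 66.7 and 67.4, with no overlap. It fell by 0.53 ± 0.12 (log2, SE; adjusted p = 0.000717, edgeR). The high dose had 82.3, 82.6 and 85.9 CPM, below all vehicle libraries, but its log2 difference of -0.22 ± 0.10 was not called (adjusted p = 0.301). It was -0.21 ± 0.057 and called without the 4 libraries set apart (0.00792; 15% of genes called), as it was against the low dose (-0.21 ± 0.057, 0.0133).

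FN1 (fibronectin; ENSG00000115414, chromosome 2, 215360440 to 215436172, minus strand), a matrix protein that cells bind through integrins, had 546, 528 and 545 CPM in the vehicle. At the medium dose of Aconiti it had 163 and 177 CPM, at the high dose 452, 473 and 544, and at the low dose 610, 552 and 660. The medium dose was far below every vehicle library, whereas the high dose overlapped the vehicle. FN1 fell by 1.66 ± 0.30 (log2, SE; adjusted p = 5.69e-05, edgeR) at the medium dose, to 0.316 of the vehicle, and the high dose exceeded the medium dose by 1.52 ± 0.30 (adjusted p = 0.000513). The high dose against vehicle gave -0.14 ± 0.25 (adjusted p = 0.9).

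TGFBI (ENSG00000120708, chromosome 5, 136028895 to 136063818, plus strand), a secreted matrix protein named for its induction by TGF-beta, had 1213, 1212 and 1223 CPM in the vehicle and 872 and 867 at the medium dose of Aconiti. The high dose had 1019, 1078 and 1025 CPM and the low dose 1198, 1297 and 1231, so the medium and high doses lay below all vehicle libraries and the low dose overlapped them. TGFBI fell by 0.48 ± 0.062 (log2, SE; adjusted p = 1.25e-07, edgeR) at the medium dose and by 0.22 ± 0.055 at the high dose (adjusted p = 0.00852).

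VIM (vimentin; ENSG00000026025, chromosome 10, 17228259 to 17237593, plus strand), the intermediate filament of mesenchymal cells, had 918, 940 and 1011 CPM in the vehicle and 1275 and 1249 at the medium dose of Aconiti, with no overlap. It rose by 0.40 ± 0.13 (log2, SE; adjusted p = 0.0248, edgeR), 1.32-fold. ZEB1 (ENSG00000148516, chromosome 10, 31318495 to 31529814, plus strand), a repressor of CDH1, had 30.5, 29.2 and 27.3 CPM in the vehicle, 39.4 and 38.3 at the medium dose, 35.3, 34.8 and 34.2 at the high dose and 33.0, 27.01 and 32.1 at the low dose. The medium dose rose by 0.42 ± 0.12 (adjusted p = 0.0125), and the high dose, also above all vehicle libraries, differed by 0.26 ± 0.11 and was not called (0.231), but was called without the 4 libraries set apart (0.26 ± 0.065, 0.00443). Leaving out either library of the medium dose ended both calls, as did vehicle replicate 1 or 2 for VIM (adjusted p up to 0.121) and testing without the low-count filter for ZEB1 (up to 0.0878).

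At the medium dose of Aconiti, SNAI2, TGFB1 and TGFBR2 were not called. SNAI2 had 0.603 and 0.495 CPM and TGFB1 104 and 101, against 85.1, 89.5 and 95.5 in the vehicle. TGFBR2 had 67.1 and 67.9 CPM against 86.0, 82.8 and 84.3, a log2 difference of -0.32 ± 0.25 (adjusted p = 0.452, edgeR) that did not overlap the vehicle. Without the 4 libraries set apart, the standard error of TGFBR2 was 0.055, the difference -0.31 and the adjusted p 2.33e-05, and 8 of the 10 genes were called where 32.8% of all genes were.

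**Figure D3:**
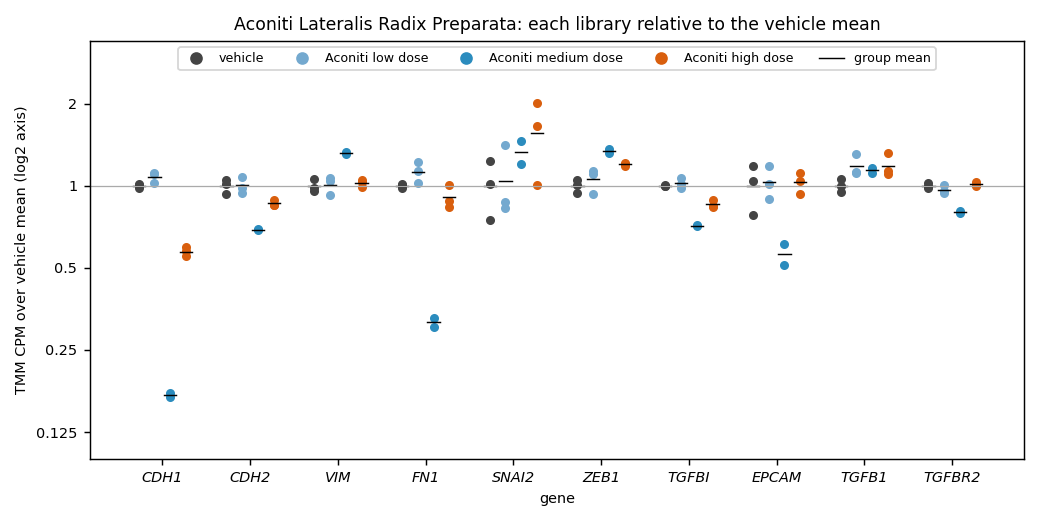
CPM of each library divided by the vehicle mean (y axis, log2 scale) for the 10 genes (x axis) in the vehicle and at 3 doses of Aconiti Lateralis Radix Preparata; points are libraries and bars group means. CDH1 sits at 0.171 and FN1 at 0.316 of the vehicle mean at the medium dose, with the mean of the high dose between the medium dose and the vehicle for both genes.

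The 10 markers of A549 and epithelium, which include CDH1 and EPCAM, summed to 14480 and 15358 CPM in the 2 libraries of the medium dose of Aconiti, against 19344 to 20220 in the vehicle. The 8 fibroblast markers summed to 8.12 and 8.24 CPM against 38.95 to 40.56, with DCN and FAP at or near 0 in all libraries (at most 0.127 and 0.161 CPM). In the vehicle this sum was mostly COL1A1 (mean 32.7 CPM), a collagen gene that is also in the mesenchymal and matrix list below. The 6 alveolar type 2 markers summed to 32.3 and 34.04 CPM against 21.6 to 23.1, mostly ABCA3. The part of these in the changes above was not tested, and fewer cells of a kind and less RNA per cell cannot be told apart in bulk RNA.

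Outside Aconiti, CDH1 was called against vehicle by neither edgeR nor DESeq2 on all libraries, and the high and medium dose of Citri had an unadjusted p below 0.05. The highest group mean was at the low dose of Zizyphi (35.3 and 37.6 CPM), and the vehicle was 13th of 25 groups. Of 24 pairs of groups next to each other in this order, 22 had overlapping libraries, and both lowest groups were those of Aconiti. Coptidis had 29.3 and 30.5 CPM at the low, 26.96 and 25.0 at the medium and 23.9 and 23.9 at the high dose, with the medium and high doses below all vehicle libraries. The high dose differed from vehicle by -0.38 ± 0.25 (log2, SE; adjusted p = 0.375, edgeR). In the fit by extract, the difference was -0.36 ± 0.056 at the high dose (adjusted p = 8.86e-05, edgeR, with 44% of genes called). At the medium dose it was -0.24 ± 0.057 (0.00527, with 26.7% called), and both were called. Bupleuri had 36.9, 34.6 and 36.2 CPM at the low dose, 30.0, 32.8 and 30.9 at the medium and 22.8, 24.5 and 25.5 at the high dose. Its high dose differed from the low dose by -0.57 ± 0.22 (adjusted p = 0.309), and by -0.56 ± 0.17 without the 4 libraries set apart (0.0351). Against vehicle the high dose was called in the fit by extract (-0.35 ± 0.055, 0.000157, with 26.2% of genes called). The low dose was called higher there (0.21 ± 0.053, 0.0143, with 12.2%).

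CDH1 was split within groups of Citri and Cimicifugae. Citri had 35, 16.9 and 14.8 CPM at the high dose and 33.5, 13.2 and 20.6 at the medium dose, against 34.98, 30.4 and 31.6 at the low dose. Cimicifugae had 35.2, 21.5 and 33.1 CPM at the medium and 34.9, 19.4 and 34.6 at the low dose, and 30.6, 27.1 and 31.3 at the high dose. The low values were not confined to the 4 libraries set apart: replicate 2 of Citri at the high and medium dose was also low (16.9 and 13.2 CPM). Against vehicle the log2 difference of CDH1 was -0.49 ± 0.22 at the high dose of Citri (SE; adjusted p = 0.156, edgeR) and -0.47 ± 0.22 at the medium dose (0.338), and without the 4 libraries -0.30 ± 0.19 (0.434) and -0.42 ± 0.19 (0.173). Leaving out replicate 1, which was above all vehicle libraries, made both a call, at -0.97 ± 0.21 for the high dose (0.00163) and -0.88 ± 0.22 for the medium dose (0.0174), and the high dose was then below the low dose by 1.03 ± 0.21 (0.00121). With the replicate number as a block within library sets the high dose of Citri was also called, against vehicle (-0.54 ± 0.16, 0.0287) and against its low dose (-0.61 ± 0.16, 0.02), as it was without the low-count filter (0.0142 and 0.00369). In Cimicifugae the differences were -0.05 at the medium and -0.07 at the low dose, and 0.13 and 0.16 without the 4 libraries, none called.

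FN1 was low in the same 6 libraries, with 463 and 283 CPM at the high and 297 and 335 at the medium dose of Citri, and 357 and 264 in replicate 2 of the medium and low dose of Cimicifugae. Its log2 difference from vehicle was -0.26 ± 0.25 at the high and -0.32 ± 0.25 at the medium dose of Citri (SE), and -0.02 ± 0.17 and -0.16 ± 0.17 without the 4 libraries. In Cimicifugae it was 0.13 at the medium and 0.02 at the low dose, and 0.38 and 0.35 without them, and none of these FN1 differences was called. Between doses of Citri, FN1 at the high dose was called below the low dose without the low-count filter (-0.56 ± 0.13, adjusted p = 0.0016, edgeR). Without replicate 1 of the high dose it was also called (-0.83 ± 0.28, 0.0287). In the same 2 settings the high dose of Citri was called below that of Cimicifugae (-0.51 ± 0.13, 0.00509, and -0.78 ± 0.28, 0.0355). In the medium dose of Citri and in the medium and low dose of Cimicifugae, edgeR called 0 members, with 2, 0 and 1 at an unadjusted p below 0.05, and DESeq2 also 0. Of all genes, 0%, 0.0269% and 0% were called there.

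For FN1, 20 of the 24 treated groups had means above the vehicle, 17 of them among the 21 tested, and none of these was called on all libraries. In fits by extract, 6 of them were called higher. They were all 3 doses of Coptidis, the medium and low dose of Bupleuri and the low dose of Yijung-tang. Of all genes, 44%, 26.7% and 13.9% were called from high to low dose of Coptidis. At the medium and low dose of Bupleuri it was 12.5% and 12.2%. How many other genes had means above the vehicle in as many groups was not counted. Yijung-tang at the low dose was highest (756 and 784 CPM), followed by the single Banhasasim-tang library at the low dose (765 CPM), which is 1.42 times the vehicle mean. The log2 difference of Yijung-tang at the low dose was 0.51 ± 0.28 (SE; adjusted p = 1, edgeR). In the fit by extract it was 0.52 ± 0.077 (0.0081, with 3.03% of genes called). Coptidis had 662 and 769 CPM at the low and 640 and 696 at the high dose, both above all vehicle libraries. Since the vehicle carries a library code of its own, this offset cannot be told apart from a difference between sets of libraries.

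TGFBI had the smallest spread within groups, with a median coefficient of variation of 1.85%, and the most calls of the 10 genes. It fell at the high dose of 3 extracts and at the medium dose of Aconiti. Coptidis at the high dose had 1034 and 1023 CPM, a fall of 0.24 ± 0.061 (log2, SE; adjusted p = 0.00553, edgeR) where 12.6% of all genes were called. Yijung-tang at the high dose had 985 and 961 CPM, a fall of 0.32 ± 0.061 against vehicle (adjusted p = 0.00165; 1.37% of genes called) and of 0.28 ± 0.067 against its low dose (1173 and 1183 CPM; adjusted p = 0.0448; 0.431% called). Aconiti at the high dose fell by 0.26 ± 0.055 against its low dose (adjusted p = 0.00267) and exceeded its medium dose by 0.26 ± 0.061 (0.00421). Testing without the low-count filter ended each of these calls of a high dose (adjusted p up to 1 over the alternatives). Leaving out 1 library also ended them: either library of Coptidis, replicate 2 of Yijung-tang at the high dose against vehicle, any of the 4 Yijung-tang libraries between doses, replicate 1 or 3 of Aconiti at the high dose against vehicle, replicate 2 of its low dose, and either library of its medium dose.

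Other groups had lower TGFBI without a call. At the high dose, Bupleuri had 1084, 1126 and 1087 CPM and Cimicifugae 1043, 1072 and 1079, all below the vehicle, and the medium dose of Coptidis had 1071 and 1065. DESeq2 and the fit without the 4 libraries called these 3 groups too. Between extracts at high dose, TGFBI in Coptidis was below Zizyphi (1173 and 1218 CPM) by 0.22 ± 0.067 (adjusted p = 0.0343, edgeR; 8.12% of genes called), though their doses in µg/mL differ. In Citri (1303, 1225 and 1096 CPM), at the same 500 µg/mL, it was above Cimicifugae by 0.18 ± 0.055 (adjusted p = 0.0388; 7.67% called), and without the 4 libraries by 0.25 ± 0.046 (0.000972; 2.49%). The first call was lost without any 1 of its 4 libraries (adjusted p up to 0.875 over the alternatives), and the second without Citri replicate 1 or any 1 of the Cimicifugae libraries (up to 0.657).

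Outside Aconiti, CDH2, VIM and EPCAM had no call against vehicle by edgeR or DESeq2 on all libraries. CDH2 in Bupleuri at the high dose had 75.1, 80.9 and 82.6 CPM, below all vehicle libraries, with a log2 difference of -0.29 ± 0.10 (SE; adjusted p = 0.132, edgeR). It was -0.29 ± 0.058 and called without the 4 libraries set apart (adjusted p = 0.000514). VIM was high in replicate 2 of the high and medium dose of Citri (1268 and 1436 CPM) next to 999 and 857, and 918 and 1031, in the other replicates, so the groups overlapped the vehicle. The log2 difference was 0.12 ± 0.12 at the high and 0.24 ± 0.12 at the medium dose, and 0.24 ± 0.11 and 0.30 ± 0.11 without the 4 libraries, not called; without replicate 1 the medium dose was called (0.37 ± 0.12, 0.0438). In the fit by extract VIM was called higher at the high (0.20 ± 0.043, 0.00112) and medium dose of Coptidis (0.12 ± 0.043, 0.0492). Of all genes, 44% and 26.7% were called there. EPCAM at the high dose of Citri (4.86, 4.97 and 9.32 CPM) exceeded Cimicifugae (3.36, 3.85 and 3.79) by 0.77 ± 0.19 (adjusted p = 0.0213). The value of 9.32 is from 1 of the 4 libraries set apart. The call was lost without it (log2 0.43) and without any 1 of the Cimicifugae libraries, with adjusted p up to 0.601 over the alternatives. Against vehicle, EPCAM at this dose was called without replicate 1 (0.57 ± 0.20, 0.0361) or replicate 2 (0.59 ± 0.21, 0.0454).

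**Figure D4:**
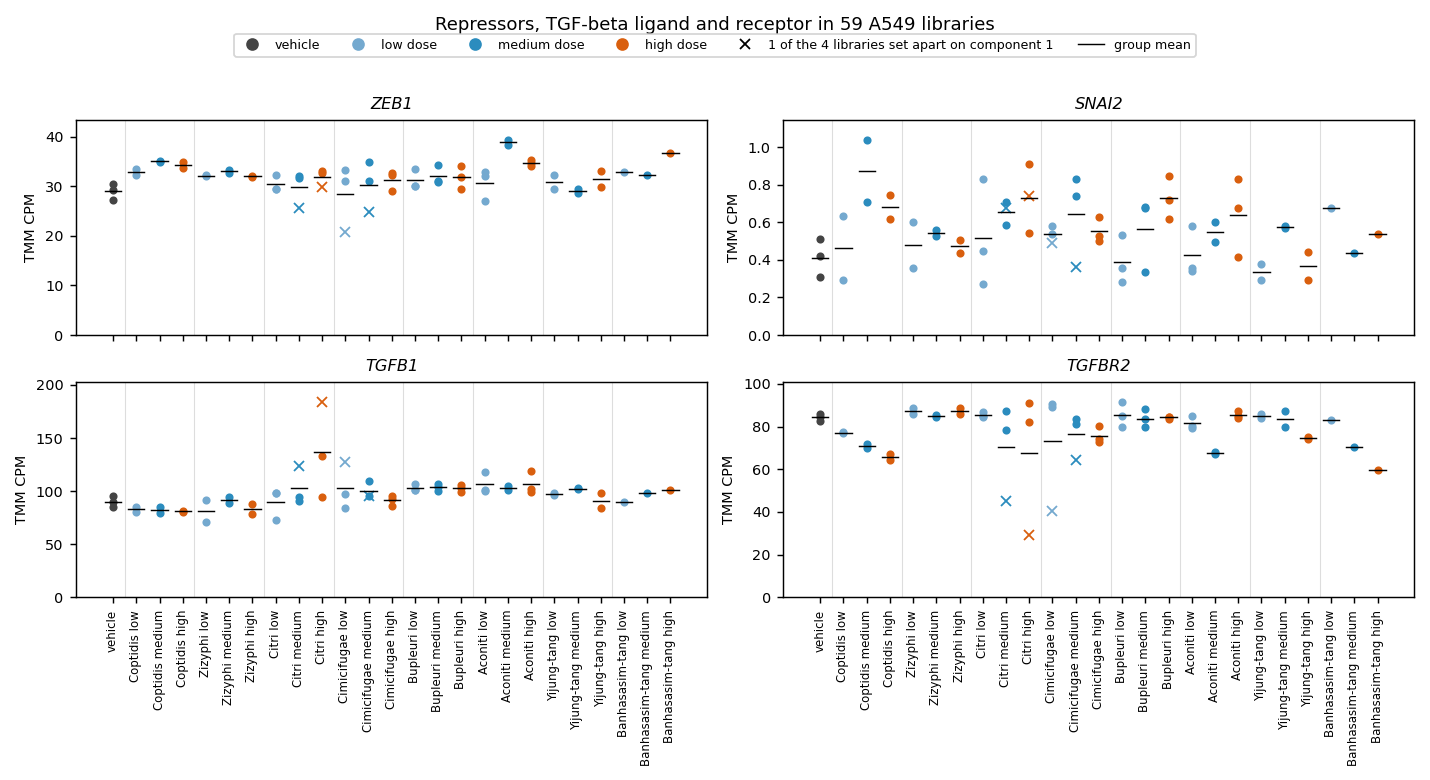
CPM after TMM scaling (y axis, linear from 0) of the repressors ZEB1 and SNAI2, the ligand TGFB1 and the receptor TGFBR2 in each of 59 libraries, grouped on the x axis by extract and dose; points are libraries, crosses the 4 libraries set apart, and bars group means. ZEB1 peaks at the medium dose of Aconiti (39.4 and 38.3 CPM), TGFB1 in 1 library of Citri at the high dose (184 CPM), and 3 of the 4 crosses hold the lowest TGFBR2 values (29.3 to 45.3 CPM).

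On all libraries the repressors were called in no group but the medium dose of Aconiti, and there for ZEB1 alone. For ZEB1, 23 of 24 treated groups had means above the vehicle, 20 of them among the 21 tested. The share of all genes with as many was not computed. Coptidis had 32.3 and 33.6 CPM at the low, 35.1 and 35.01 at the medium and 34.9 and 33.7 at the high dose, each above all vehicle libraries. The high dose differed by 0.24 ± 0.12 (log2, SE; adjusted p = 0.233, edgeR), and without the 4 libraries set apart by 0.25 ± 0.074 (0.00797), as the medium dose was (0.28 ± 0.075, 0.00976). As for FN1, a shift shared by most treated groups cannot be told apart from a difference between library sets.

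SNAI2 (SLUG; ENSG00000019549, chromosome 8, 48917604 to 48921740, minus strand) was between 0.272 and 1.04 CPM in all 59 libraries, and its median coefficient of variation within groups was 24.8%. The vehicle had 0.509, 0.418 and 0.307 CPM. The highest group was the medium dose of Coptidis, with 1.04 and 0.707 CPM, above the vehicle by 1.05 ± 0.39 (log2, SE; adjusted p = 0.149, edgeR). edgeR called SNAI2 in 0 of 21 comparisons with vehicle, with 3 at an unadjusted p below 0.05, and DESeq2 in 0, with no adjusted p given in 8. All 24 neighbouring pairs in the order of its group means overlapped, so that order carries no weight at this depth.

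TGFB1 (ENSG00000105329, chromosome 19, 41301587 to 41353911, minus strand), the ligand, was called against vehicle at the high dose of Citri alone on all libraries. This group had 93.99, 133 and 184 CPM, against 85.1, 89.5 and 95.5 in the vehicle and 72.9, 98.5 and 98.0 at the low dose of Citri, and its lowest library overlapped both. TGFB1 rose by 0.61 ± 0.15 against vehicle (log2, SE; adjusted p = 0.0313, edgeR; 4.42% of genes called) and by 0.61 ± 0.15 against the low dose (0.0357; 3.54% called). It exceeded Cimicifugae (85.7, 95.6 and 92.9 CPM) at the same dose by 0.58 ± 0.15 (0.0213). The 184 CPM belong to replicate 3, 1 of the 4 libraries set apart, and without it the log2 fold over vehicle was 0.34 and all 3 calls were lost (adjusted p up to 0.778 over the alternatives). They were also lost without any 1 of the 3 vehicle, low-dose or Cimicifugae libraries they were set against, and in fits by extract. The summed epithelial markers ran from 19375 to 32982 CPM in the high dose of Citri, and their part in the result was not tested. The change from low to high dose in Citri exceeded that in Cimicifugae for 2 members, TGFB1 by 0.779 ± 0.207 and EPCAM by 0.915 ± 0.272 (log2, SE; adjusted p = 0.0363 and 0.0409, edgeR; 7.02% of genes called), and neither was called without the 4 libraries. Among the other groups, means lay between 81.1 and 107 CPM. In fits by extract TGFB1 was called higher at all 3 doses of Bupleuri (0.20 ± 0.047 each) and at the high dose of Aconiti (0.25 ± 0.072). TGFB1 was called lower in such a fit at the high dose of Coptidis (-0.13 ± 0.049). Of all genes, 26.2%, 12.5% and 12.2% were called from high to low dose of Bupleuri. At the high dose of Aconiti it was 22.9%, and at that of Coptidis 44%.

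TGFBR2 (ENSG00000163513, chromosome 3, 30606502 to 30694142, plus strand), the receptor, was called in no comparison by edgeR on all libraries, with 0 of 21 comparisons with vehicle at an unadjusted p below 0.05 and 0 called by DESeq2. Its groups were tight outside the 4 libraries: Coptidis had 77.2 and 77.1 CPM at the low, 70.1 and 71.6 at the medium and 66.9 and 64.3 at the high dose, all below the vehicle. Yijung-tang had 75.1 and 74.03 CPM at the high dose, and the single Banhasasim-tang libraries had 83.2, 70.3 and 59.8 from low to high dose. Without the 4 libraries, TGFBR2 fell at the high dose of Coptidis by 0.35 ± 0.056 (log2, SE; adjusted p = 6.66e-06, edgeR) where 27.9% of genes were called, at its medium dose by 0.24 ± 0.056 (0.00252; 12.4%), and at the high dose of Yijung-tang by 0.17 ± 0.055 (0.0451; 9.11%). The high dose of Coptidis was also below its low dose by 0.22 ± 0.061 (0.0165, with 9.05% called) and below Zizyphi by 0.39 ± 0.061 (5.04e-06, with 20.5%). Aconiti at the high dose exceeded its medium dose by 0.33 ± 0.055 (1.99e-05, with 20.3%). The comparisons named so far hold none of the 4 libraries: leaving them out changed the estimate of the spread, with the SE at the high dose of Coptidis 0.25 before and 0.056 after. In groups that lost libraries, Cimicifugae at the high dose was below its low dose by 0.25 ± 0.055 (0.0193, with 0.48%). Citri at the high dose exceeded Cimicifugae by 0.20 ± 0.055 (0.0438, with 2.49%).

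Banhasasim-tang, with 1 library a dose, has no test. Of the 10 genes, SNAI2 at the low dose (1.64 times the vehicle mean) passed 1.5-fold in either direction, where 13.1% of all genes did. At the medium and high dose none passed (14.3% and 21.9% of all genes did), and TGFBR2 at the high dose was closest, at 0.709 of the vehicle mean.

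**Figure D5:**
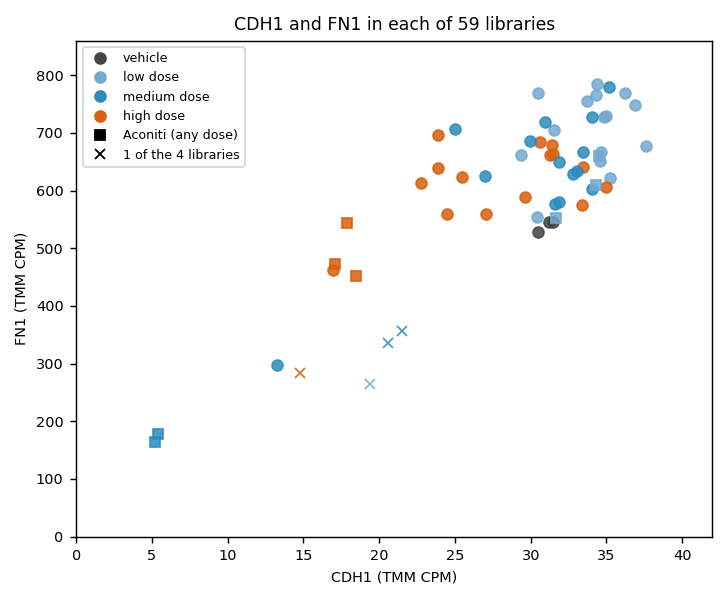
FN1 (y axis) against CDH1 (x axis), both in CPM after TMM scaling and linear, in each of 59 libraries; colours mark the dose, squares Aconiti and crosses the 4 libraries set apart. The 2 libraries of the medium dose of Aconiti lie lowest on both axes, and the vehicle libraries sit at 30.5 to 31.5 CPM of CDH1 with FN1 near the lower edge of the other groups at that level.

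Across the 25 group means of log2 CPM, CDH1 varied most closely with FN1 (Pearson r = 0.92) and CDH2 (0.854), an epithelial gene with mesenchymal genes, and opposite to VIM (-0.774). Without the 4 libraries these were 0.935, 0.881 and -0.748. VIM and ZEB1 had r = 0.55, and SNAI2 had at most 0.456 in either direction with any other member, with VIM. These are descriptions over 25 groups of 1 line that share library sets and, in Aconiti, an extreme group. Over 10780 genes with a mean of at least 5 CPM, the 3 whose group means were most like CDH1 were PTK2B (0.966), ADD3 (0.965) and C3 (0.964). For FN1 they were MYRF (0.965), FMN1 (0.955) and SNHG14 (0.941), for CDH2 TLN1, ITGA11 and C5 (0.881 to 0.889), and for VIM EIF3D, ZNF777 and PROSER2 (0.886 to 0.91). TGFBI was most like CNN2, UPK3B and SULT2B1 (0.902 to 0.915), TGFBR2 like CEMIP2, STIL and GLYR1 (0.927 to 0.955), TGFB1 like SCAF1, MAP7D1 and CEP89 (0.914 to 0.936), and ZEB1 like KANK1, MYO19 and ITGA2 (0.875 to 0.903). EPCAM had KLC4, C1R and WDR4 (0.773 to 0.815), and SNAI2 no gene above 0.641 (RUFY1, CMC4 and CHN1).

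Other genes of the same pathway were read from 5 lists without the 10 members. At the medium dose of Aconiti, 12 of 30 tested genes for epithelial adhesion and polarity (37 listed) were called lower and 2 higher, with a median log2 fold of -0.33. JUP, plakoglobin of junctions and desmosomes, had 131 ± 2.98 CPM (SD, n = 2) against 251 ± 19.2 in the vehicle (n = 3), a fall of 0.94 ± 0.094 (log2, SE; adjusted p = 7.45e-10, edgeR). The tight junction gene CLDN2 fell by 1.45 ± 0.16 (7.92e-09), beta-catenin (CTNNB1) by 0.33 ± 0.082 (0.00302) and keratin KRT18 by 0.65 ± 0.21 (0.0214), whereas OCLN, occludin of tight junctions, rose by 0.74 ± 0.19 (0.0042). Of 38 tested mesenchymal and matrix genes (40 listed), 11 were lower and 6 higher, with a median of -0.37, so mesenchymal genes moved both ways. SPARC, a matrix-binding glycoprotein, had 4.30 ± 0.263 CPM against 21.4 ± 0.172, a fall of 2.31 ± 0.13 (1.23e-16), and collagens COL3A1 and COL4A1 fell by 1.70 ± 0.31 and 0.94 ± 0.14. LOXL2, which crosslinks collagen, rose by 0.47 ± 0.14 (0.0164). Of all tested genes, 9.28% were called lower and 8.23% higher there.

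Among 17 tested transcription factors of the transition (18 listed), 9 were higher and 1 lower at the medium dose of Aconiti, with a median log2 fold of 0.70. ETS1 rose 3.17-fold, from 28.3 ± 0.790 to 89.7 ± 4.08 CPM (adjusted p = 1.77e-07, edgeR), RUNX2 3.63-fold from 0.414 ± 0.183 CPM (0.000123) and TWIST1 1.89-fold from 0.519 ± 0.0937 CPM (0.0291), the last 2 at low levels. SNAI1 (SNAIL), a related repressor of CDH1, was the gene that fell, from 17.7 ± 2.12 to 8.48 ± 0.199 CPM (7.07e-06). Of 28 tested TGF-beta ligands, receptors and SMADs (30 listed), 5 were higher and 5 lower: GDF15, a stress-induced member of the ligand family, rose 3.02-fold (7.75e-07) and SMURF2, a ubiquitin ligase that limits SMAD signalling, 2.30-fold (3.01e-06), whereas INHBB fell to 0.598 (6.95e-06) and the decoy receptor BAMBI to 0.667 (0.0028). Of 19 tested early TGF-beta targets (20 listed), 5 were higher and 2 lower, with a median of 0.01. TSC22D1 rose 2.28-fold (2.18e-10) and IL11 1.43-fold (0.00539). Without the 4 libraries set apart, the counts higher and lower at this dose were 2 and 14 (of 29 tested), 6 and 19, 9 and 1, 9 and 7, and 7 and 2 for the 5 lists in the order given.

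At the high dose of Coptidis each list had calls in both directions, with 1 higher and 4 lower, 5 and 4, 3 and 2, 4 and 4, and 4 and 2 in the same order, where 6.41% of all genes were called higher and 6.14% lower. The counts without the 4 libraries set apart were 7 higher and 6 lower, 8 and 7, 7 and 3, 9 and 6, and 6 and 5, where 27.9% of all genes were called, so the epithelial list went from mostly lower to about even. IL11 fell to 0.458 of the vehicle (adjusted p = 4.2e-07, edgeR) and TGM2, transglutaminase, to 0.576 (3.42e-05). SOX9 fell to 0.396 (1.96e-08) and SNAI1 to 0.530 (0.000119), while ETS1 rose 2.46-fold (2.85e-05) and OCLN 2.73-fold (4.04e-07). JUP fell to 0.574 of the vehicle (4.09e-08) while CDH1 was not called on all libraries. In Cimicifugae at the high dose, PMEPA1, a TGF-beta feedback inhibitor, had 219 ± 2.95 CPM against 331 ± 2.24 in the vehicle, a fall of 0.60 ± 0.082 (log2, SE; 1.33e-05), and it was the 1 early target called there, where 0.377% of all genes were. At the high dose of Yijung-tang, PMEPA1 fell by 0.49 ± 0.093 (0.0013) beside TGFBI. Without the 4 libraries, 5 of 19 early targets were lower and 0 higher at each of these high doses. Of all genes, 3.72% were called there in Cimicifugae and 9.11% in Yijung-tang. On all libraries, no list had a call in Zizyphi at any dose, or in the low doses of the other extracts apart from SOX9 in Coptidis. Nor did the medium doses apart from Coptidis and Aconiti. Without the 4 libraries, lists also had calls at the medium dose of Citri, Cimicifugae and Bupleuri and the low dose of Bupleuri and Aconiti. Further lists had calls at the low dose of Coptidis, and Zizyphi still had none. For example, 3 early targets were lower and 0 higher at the medium dose of Cimicifugae, where 4.37% of all genes were called.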

How the data were processed

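The deposited table holds expected counts per gene, which are not normalized, made by the authors with RSEM 1.3.3 after FastQC 0.11.9, Trim Galore 0.6.5 and STAR 2.7.3a on hg38 (GRCh38), per the submitters' processing notes. RSEM shares reads among near-identical genes, so 84.4% of the values are whole, and no source used here gives the strand setting. The 59 columns that match a sample were used and 210 other columns were not used here. Positions and exon lengths come from GENCODE release 29, which holds 57055 of the 60675 gene IDs. Symbols come from a separate list of gene names, which names 56558 of them. Expected counts were rounded, genes with low counts were removed with filterByExpr (minimum count 10, minimum total 15), and the remaining 18568 were scaled by TMM. One quasi-likelihood model of 25 group means was fitted in edgeR 4.0.16 (R 4.3.3), with 34 residual degrees of freedom. All 38 comparisons were two-sided contrasts of that fit, adjusted by Benjamini-Hochberg over all genes within each comparison. Standard errors of log2 folds were derived from the F statistic.

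The members and the lists of other genes were chosen with earlier results of these data known. All members are named, with up to 5 genes a list that had the most calls against vehicle (ties by the larger fold) and the 3 genes whose group means were most like each member. LTBP2, SMAD7 and SKIL stand in 2 lists. KRT7, KRT8, KRT18 and MUC1 are also among the epithelial markers, and COL1A1 and COL3A1 also among the fibroblast markers. On data simulated for the medium dose of Aconiti against vehicle, the same steps recovered 45% of genes changed 1.5-fold and 100% of those changed 3-fold, with 10 false calls among 17995 genes. Simulated counts took a shared mean for each gene in all groups and a spread set by its level. They held no libraries set apart, and genes as low as SNAI2 were not among those changed. The rates therefore need not hold for these members. Alternatives were RLE scaling, DESeq2 1.42.0, no low-count filter, fits by extract, replicate blocks and leaving out each library. A fit by extract held all doses of the extract or extracts compared, so its spread also draws on doses outside the comparison. Replicate numbers paired the libraries within Citri, where the deviations of same-numbered libraries correlated at 0.474 to 0.603 between high and medium dose and at 0.122 to 0.235 between high and low dose. Elsewhere, no comparison with 3 shared numbers had every correlation above 0.1 (against vehicle, -0.16 to 0.161). A fit without the 4 libraries set apart was chosen after seeing the data. No 2 libraries of a group held identical values. Figures were drawn with matplotlib 3.10.9.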

Additional observations from a re-analysis of the deposited data

Results flagged for a closer look

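The difference between high and low dose was compared between the extracts of a library set, a comparison added after results were known, and 2 members differed between Citri and Cimicifugae. For EPCAM the high dose minus the low dose was 0.32 in Citri and -0.60 in Cimicifugae on the log2 scale, a difference of 0.915 ± 0.272 (SE; adjusted p = 0.0409, edgeR). For TGFB1 it was 0.61 and -0.17, a difference of 0.779 ± 0.207 (adjusted p = 0.0363). Of all genes, 7.02% were called in this comparison. Replicate 3 of Citri at the high dose and replicate 2 of Cimicifugae at the low dose, both among the 4 libraries set apart, enter it: EPCAM had 9.32 and 7.18 CPM there, and TGFB1 184 and 127. Without the 4 libraries the differences were 0.33 (adjusted p = 0.861) and 0.33 (adjusted p = 0.765), neither past the threshold.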

How the results depend on the processing

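No call of a member changed direction under any alternative run. The falls of CDH1, FN1, CDH2 and TGFBI at the medium dose of Aconiti against vehicle, and the differences of CDH1 and FN1 between its high and medium dose, were called under all 12 alternatives run on each. Member calls against vehicle numbered 12, and 42 (19 higher, 23 lower) in fits by extract. They were 23 (5 higher, 18 lower) without the 4 libraries set apart, and 9 to 14 without 1 library. The share of all genes called rose as well in Coptidis and Aconiti, in fits by extract and without the 4 libraries. In that order, it went from 12.6% to 44% and 27.9% at the high dose of Coptidis. At the medium dose of Aconiti it went from 17.5% to 42% and 32.8%. At the high dose of Citri it fell from 4.42% to 0% and 1.45%. Between high and low dose the 4 calls became 13, 9, and 2 to 6 under the same changes, and between high and medium dose 11, 10, and 2 to 6, with 8 by DESeq2. By extract and without the 4 libraries, 27.3% and 9.05% of all genes were called between high and low dose of Coptidis. In Bupleuri it was 9.72% and 5.56%, and in Aconiti 12.6% and 9.71%. Between high and medium dose of Aconiti it was 27.2% and 20.3%. The share of all genes called by DESeq2 was not computed. Between extracts they were 0 to 5 without 1 library, with none left without any 1 of the Cimicifugae libraries of the high dose. Counts fell to 2 between high and low dose without Citri low dose replicate 3, Aconiti high dose replicate 2 or Aconiti low dose replicate 2, and between high and medium dose without Aconiti medium dose replicate 2. They fell to 2 between extracts without either Coptidis library, Zizyphi replicate 2, Citri replicate 3 (all high dose) or Bupleuri medium dose replicate 1. The cause was not tested.

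With the replicate number as a block, calls against vehicle stayed at 12, and at 13 with the block within library sets, where the 4 calls between high and low dose became 6; CDH1 at the high dose of Citri was then called, and so was CDH1 between the high and low dose of Bupleuri (-0.57 ± 0.15, adjusted p = 0.0379) and VIM between the high and medium dose of Aconiti (-0.35 ± 0.091, 0.00985). SNAI2, at 0.272 to 1.04 CPM, is the member that depth limits most.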
